A study of Mus musculus with 36 samples.

Results

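Marco is 1 of the 27562 genes for which expression was given in alveolar macrophages (AΦ) and monocytes sorted from mouse lungs, and its level was read in all 36 libraries. The gene was selected on its expression in these same libraries, mainly its low level in AΦ from bone marrow compared with resident AΦ. Its own levels and differences are therefore given as a description with errors, and no test of Marco is reported. Tests were run for other genes, and each is read beside the share of all genes that passed in the same comparison.

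RNA-seq was made from chimeric mice that breathed filtered air (FA) or concentrated ambient PM2.5 for 4-weeks or 32-weeks. The hosts were young adult male C57BL/6J mice (CD45.2) whose lungs were shielded during irradiation. They were then given the drug busulfan and bone marrow of B6.SJL-Ptprca Pepcb/BoyJ mice (CD45.1). Every animal of every group was thus irradiated, treated with busulfan and transplanted. AΦ had been sorted as CD64+ cells with high CD11c and low CD11b, and monocytes as Ly6G- MHC II- cells with low CD64 and high CD11b. Each of the 12 groups had 3 libraries, numbered replicates 0, 1 and 2.

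At 32-weeks, host AΦ (CD45.2) are called tissue-resident (TR-AΦ) and donor AΦ (CD45.1) bone marrow-derived (BM-AΦ). The labels number these cells 1 and 2, and the key of 1 as CD45.1 and 2 as CD45.2 comes from the study's supplement for AΦ. The same key was read for the monocytes of 32-weeks, so their origin rests on that reading. The labels give no origin at 4-weeks, and the study describes the sequenced AΦ of that time as TR-AΦ. CD45.1 cells also carry the chromosome segment of another strain around Ptprc, the gene for CD45, and in this design the bone marrow origin and the donor strain cannot be told apart.

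MARCO, the macrophage receptor with collagenous structure, is a class A scavenger receptor, a trimer at the cell surface that binds bacteria and inhaled particles without the help of antibody. It is known as a receptor of AΦ for dust, silica and oxidised lipids, and it works beside Toll-like receptors in the response to microbes. Levels are in FPKM, fragments scaled by transcript length and by the mapped fragments of the library, as computed by the authors, and differences are on the scale of log2(FPKM + 1), which understates the change of a gene at low level.

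In the annotation of GRCm38 (mm10) Marco (ENSMUSG00000026390.7) lies on the minus strand of chromosome 1 from 120474538 to 120505024, a span of 30487 bp. Its long transcript has 17 exons and 1925 nucleotides and the short one has 5 exons and 370 nucleotides. No other annotated gene (0 genes) overlapped this span.

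Marco was high in TR-AΦ and low in BM-AΦ at 32-weeks. In TR-AΦ of FA exposed mice the 3 libraries had 46.1, 23.8 and 33.7 FPKM, with a mean of 34.5 ± 11.2 FPKM (SD, n = 3). In TR-AΦ of PM2.5 exposed mice they had 27.9, 47.3 and 77.8 FPKM, with a mean of 51.0 ± 25.2 FPKM (SD, n = 3). BM-AΦ of FA exposed mice had 2.08, 1.05 and 0.743 FPKM, with a mean of 1.29 ± 0.702 FPKM (SD, n = 3). BM-AΦ of PM2.5 exposed mice had 1.5, 2.07 and 6.85 FPKM, with a mean of 3.47 ± 2.94 FPKM (SD, n = 3). All 6 BM-AΦ libraries lay below all 6 TR-AΦ libraries of the same time, within FA and within PM2.5 alike. In RNA of sorted cells in bulk, fewer cells with Marco and less Marco per cell cannot be told apart. The mean of TR-AΦ was 26.7 times that of BM-AΦ under FA and 14.7 times under PM2.5.

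Averaged over both exposures, the log2 difference of Marco between BM-AΦ and TR-AΦ was -3.78 (SE 0.43), and with each of the 12 libraries left out in turn it lay between -4.03 and -3.60. Of the 12665 genes tested in AΦ, 19 had a lower value in this comparison. Among these 19 genes 1 was annotated as protein coding, Apoc1, which encodes a small apolipoprotein of lipid transport, and all 19 were listed at 0 in at least 1 of the 12 libraries. The lowest were Rn7s1, Gm26917, Gm24253, Snord35b and Gm23116, none of them annotated as protein coding. Rn7s1 had 0 FPKM in 18 of the 36 libraries, 12 of them from AΦ, and a value of exactly 0 can be a failed estimate in this table. Marco was above 0 in every AΦ library.

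The place of Marco among the genes of a library differed as well. In TR-AΦ at 32-weeks its FPKM exceeded that of 89.4% to 96.1% of the 27562 genes, with between 1062 and 2911 genes above it. In BM-AΦ it exceeded 54.4% to 75.3% of them, with between 6797 and 12572 genes above it. These shares count genes listed at 0 as below Marco. Genes above 0 numbered 15171 to 16035 in the TR-AΦ libraries and 15994 to 16671 in the BM-AΦ libraries. Of the genes above 0, 12572 of 16403 lay above Marco in BM-AΦ FA replicate 2, and 6797 of 16595 in PM2.5 replicate 2.

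**Figure D1:**
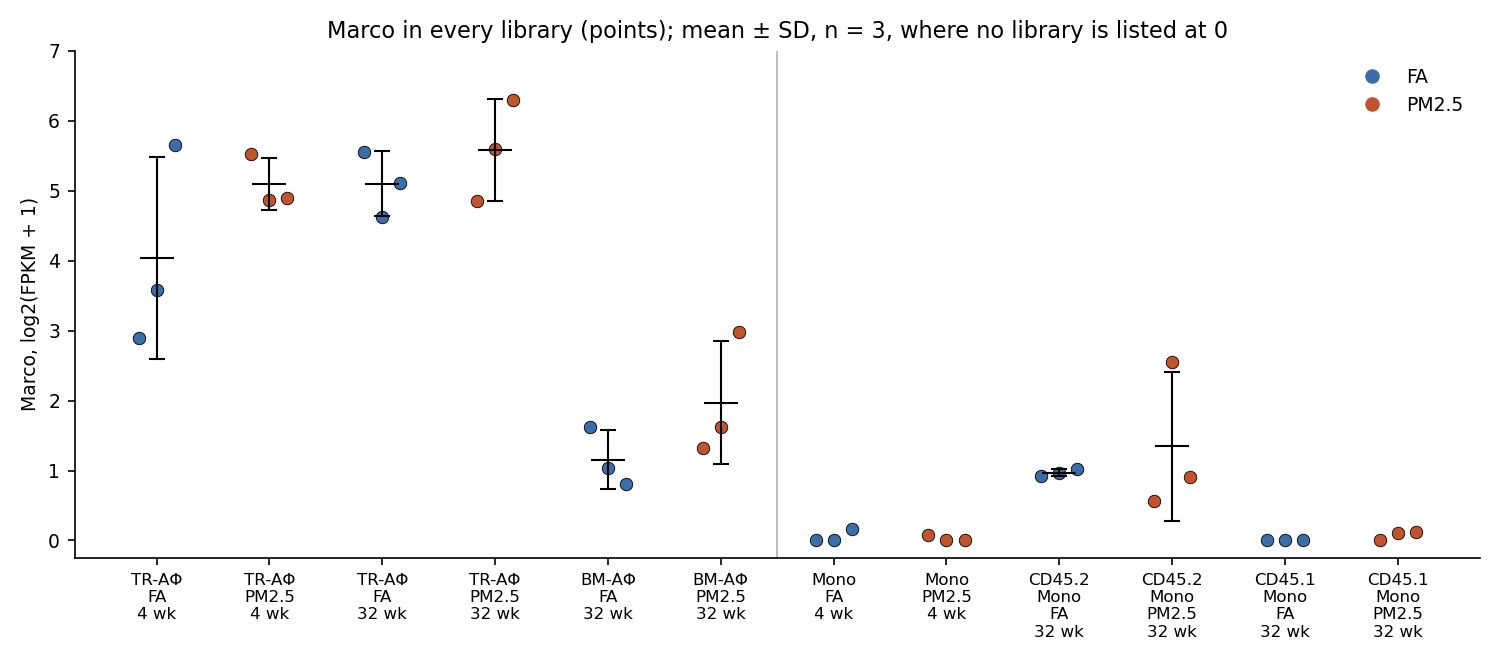
Marco in each of the 36 libraries on the scale of log2(FPKM + 1), by cell type, origin, exposure and weeks (wk), with FA in blue and PM2.5 in orange. Bars are the mean ± SD of 3 libraries and are drawn only where no library was listed at 0. TR-AΦ at 32-weeks lie above BM-AΦ without overlap, and CD45.2 monocytes lie above CD45.1 monocytes.

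At 4-weeks the AΦ libraries were more spread. Under FA they had 6.42, 10.9 and 49.3 FPKM, a mean of 22.2 ± 23.6 FPKM (SD, n = 3). Under PM2.5 they had 44.9, 28.2 and 28.7 FPKM, a mean of 33.9 ± 9.51 FPKM (SD, n = 3). The lowest library, FA replicate 0, lay below the highest BM-AΦ library of 32-weeks (6.85 FPKM), so the 12 TR-AΦ libraries of both times and the 6 BM-AΦ libraries overlapped at this point. The list of 13 alveolar macrophage markers summed to 4233 FPKM in that library, within the range of 3740 to 5021 FPKM over the AΦ of 4-weeks.

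From 4-weeks to 32-weeks the log2 difference of Marco in TR-AΦ was 1.06 (SE 0.61) under FA and 0.49 (SE 0.61) under PM2.5, and in both the libraries of the 2 times overlapped. Without FA replicate 2 of 4-weeks (49.3 FPKM) the difference under FA was 1.87, and without FA replicate 0 (6.42 FPKM) it was 0.49. Over all 12665 genes 0.782% passed between the times under FA and 1.05% under PM2.5. Mice of the 2 times also differ in age.

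PM2.5 exposed mice had a higher mean of Marco than FA exposed mice in all 3 AΦ comparisons, and in each of them the libraries of the exposures overlapped. The log2 difference of PM2.5 minus FA was 1.05 (SE 0.61) in TR-AΦ at 4-weeks. It was 0.48 (SE 0.61) in TR-AΦ at 32-weeks and 0.82 (SE 0.61) in BM-AΦ. The SD between replicates of the groups compared was 1.05, 0.61 and 0.69 on the same scale.

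Single libraries set most of these values. In TR-AΦ at 4-weeks the difference was 1.86 without FA replicate 2 and 0.48 without FA replicate 0. In TR-AΦ at 32-weeks it fell to 0.12 without PM2.5 replicate 2, the library with 77.8 FPKM. In BM-AΦ it fell to 0.31 without PM2.5 replicate 2, the library with 6.85 FPKM. The difference stayed above 0 in all 18 of these fits.

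Some of these libraries also stood apart in other transcripts. PM2.5 replicate 2 had a summed level of 7 red cell genes of 57.7 FPKM in TR-AΦ at 32-weeks, where the other 2 PM2.5 libraries had 0.762 and 0.775. In BM-AΦ it had 42.1 FPKM, where the other PM2.5 libraries had 0 and 2.38. FA replicate 2 of the same time had 39.4 FPKM in TR-AΦ and 44.4 FPKM in BM-AΦ, with Marco at 33.7 and 0.743 FPKM. Replicate 2 had the highest red cell sum in all 8 groups of 32-weeks, AΦ and monocytes (17.7 to 85.8 FPKM, against 0 to 19.5 FPKM in the other replicates), and the lowest in all 4 groups of 4-weeks (0 to 1.31 FPKM, against 6.91 to 157.1 FPKM). At 4-weeks FA replicate 2, the highest in Marco of its group, had a summed level of the 13 monocyte markers (14 rows, since Itgam has 2 identifiers) of 436.7 FPKM, where replicates 0 and 1 had 197.1 and 167.1. The part of these transcripts in the values of Marco was not tested.

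**Figure D2:**
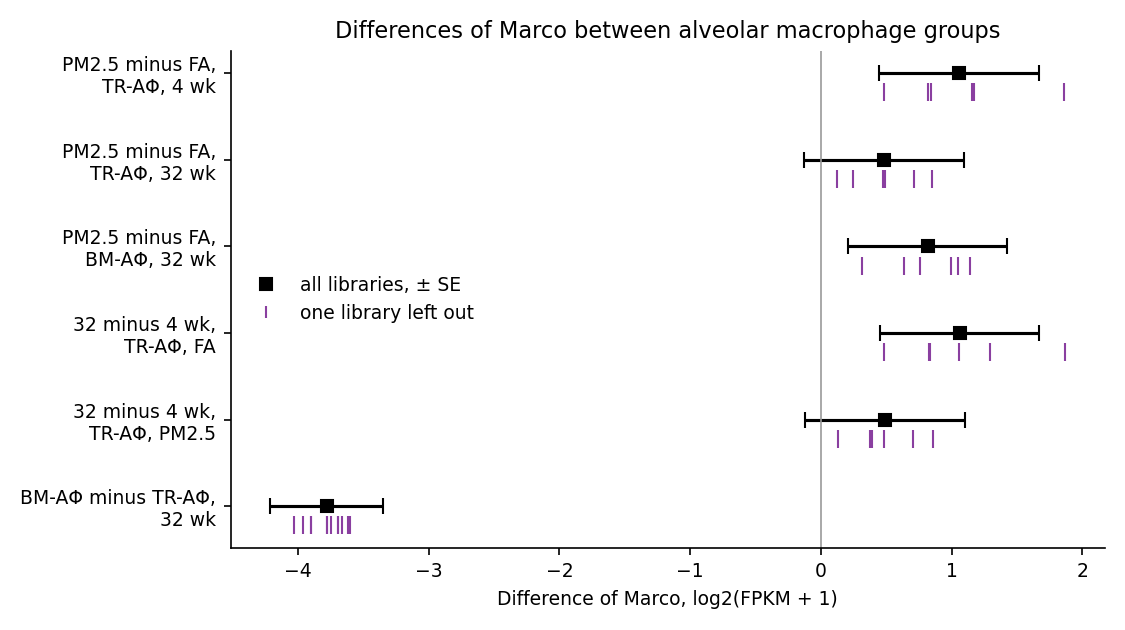
Differences of Marco between AΦ groups on the scale of log2(FPKM + 1), with black squares for all libraries (± SE) and purple ticks for each fit with 1 library left out. The differences by exposure and time lie between 0 and 2 with wide errors, and BM-AΦ minus TR-AΦ lies between -4.03 and -3.60.

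Marco was also more variable between replicates than most genes. Its SD within the 6 AΦ groups was 0.81 on the log2 scale, and 89.2% of the 12665 genes had a smaller one. Among the 2315 genes within 0.5 of its mean level, 96.1% had a smaller SD, and their median was 0.25.

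Monocytes had little Marco, and at 32-weeks their libraries divided by the origin read from the labels. At 4-weeks the FA libraries were listed at 0, 0 and 0.117 FPKM, and the PM2.5 libraries at 0.0536, 0 and 0 FPKM. At 32-weeks CD45.1 monocytes were listed at 0 FPKM in all 3 FA libraries and at 0, 0.0815 and 0.0878 FPKM in the PM2.5 libraries. CD45.2 monocytes had 0.889, 0.953 and 1.03 FPKM under FA and 0.483, 4.86 and 0.883 FPKM under PM2.5. All 6 CD45.2 libraries lay above all 6 CD45.1 libraries and above all 6 libraries of 4-weeks.

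The values above 0 in CD45.1 monocytes and at 4-weeks were near the lowest the table holds for a transcript of this length. Of 734 genes with a single transcript within 10% of 1925 nucleotides, the 5th percentile of values above 0 lay between 0.0806 and 0.197 FPKM over the monocyte libraries. Ppia, which every cell expresses, was listed at 0 in 1 library and at no more than 1.94 FPKM in any. Gapdh, another such gene, had 0.24 to 2.77 FPKM, where Actb had 4210 to 9410 FPKM. Some common genes thus have low values in every library of this table. A value of 0 is therefore given only as listed, with no mean of FPKM for a group that holds one. Differences within these groups were not detectable at these levels.

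The log2 difference of Marco between CD45.1 and CD45.2 monocytes was -1.12 (SE 0.30), and -3.32 when 0.1 in place of 1 was added to the FPKM. Marco did not reach the mean of 1 FPKM over the 18 monocyte libraries that a gene needed to be tested. Between exposures its log2 difference was -0.03 at 4-weeks, 0.08 in CD45.1 and 0.38 in CD45.2 monocytes (SE 0.43 each). This SE is pooled over the 18 monocyte libraries. The SD between replicates of the groups compared was 0.07, 0.05 and 0.75 in the same order. The difference in CD45.2 monocytes was -0.23 without PM2.5 replicate 1, the library with 4.86 FPKM.

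Some alveolar macrophage genes also differed between CD45.1 and CD45.2 monocytes. Of 11 alveolar macrophage markers tested, 4 were lower in CD45.1 monocytes (Ear1, Plet1, Krt79 and Atp6v0d2) and 0 were higher, where 0.669% of 12856 genes passed in either direction. The median log2 difference of the 11 was -1.60, and that of all genes tested 0.00. The filter took the mean of all 18 monocyte libraries, so a gene could reach it mainly through CD45.2 monocytes. Krt79 had means of 3.17 and 3.53 FPKM there (FA and PM2.5) and at most 0.22 FPKM in the other monocyte groups. For Ear1 these values were 25.1, 37.2 and 1.71 FPKM. The count and the median can thus be partly set by the filter, here and in the other lists of this comparison. The summed level of the 13 markers overlapped between the origins, at 81.4 to 456.7 FPKM in CD45.1 and 186.3 to 696.9 FPKM in CD45.2 monocytes. Ear1, which encodes a ribonuclease, fell by 4.03 on the log2 scale (SE 0.51, limma adjusted p = 0.000919) and kept its call with any of the 12 libraries left out. Plet1 kept its call in 6, Krt79 in 7 and Atp6v0d2 in 7 of these 12 fits, with adjusted p from limma of up to 0.0768, 0.0768 and 0.0784. With only the groups compared in the fit the adjusted p from limma of these 3 was 0.145, 0.121 and 0.148, and with a pseudocount of 0.1 that of Atp6v0d2 was 0.0674.

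As a share of the mean in AΦ of the same origin and exposure, Marco in CD45.2 monocytes was 2.77% under FA and 4.07% under PM2.5. The markers spread widely around these values. Siglecf, a surface lectin of AΦ, was 1.79% and 2.90%, Ear1 2.34% and 3.63%, Ear2 3.64% and 11.7%, the integrin gene Itgax 13.2% and 21.3%, and Mrc1, the mannose receptor, 31.5% and 31.9%. In PM2.5 replicate 1, where Marco was 9.53% of the AΦ mean, the 13 alveolar markers had a median of 11.1%. In the other 5 CD45.2 libraries Marco was 0.947% to 2.98% and the median of the markers 1.76% to 3.41%. In CD45.1 monocytes the median of the markers was 0.296% to 1.04%, and Marco was listed at 0 in 4 of 6 libraries. In the other 2, PM2.5 replicates 1 and 2, Marco was 2.35% and 2.53% of its mean in BM-AΦ, and the median of the markers was 1.04% and 0.608%.

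Interstitial macrophage genes also differed between these monocytes. Of 7 genes, 4 were lower in CD45.1 monocytes and 0 higher, where 0.669% of all genes passed. Folr2, a folate receptor, fell by 3.32 (SE 0.32, limma adjusted p = 0.000135) on the log2 scale. Cd163, the haemoglobin scavenger receptor, fell by 3.57 (SE 0.43, limma adjusted p = 0.00071), and Lyve1, a hyaluronan receptor, by 2.75 (SE 0.35, limma adjusted p = 0.000919). Pf4, the platelet factor 4 chemokine, passed with all libraries (limma adjusted p = 0.0415) and in 2 of the 12 fits with a library left out. The summed level of the 7 genes was 931.5 to 3578 FPKM in CD45.2 monocytes and 319.3 to 1051 FPKM in CD45.1 monocytes. At 4-weeks it was 4.32 and 4.14 FPKM in replicate 2 of FA and PM2.5, and 165.4 to 418.7 FPKM in the other monocyte libraries. The part of these cells in the values of Marco was not tested.

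With Marco at or near 0, monocytes of 4-weeks were on the side of CD45.1 monocytes, although the study describes host cells for that time. Of the 86 genes that passed between the 2 origins of monocytes at 32-weeks, 78 had a mean at 4-weeks nearer to CD45.1 monocytes and 8 nearer to CD45.2 monocytes. Without both replicates 2 of 4-weeks, left out after the data were seen, these counts were 79 and 7. Of the 86 genes 76 were lower in CD45.1 monocytes and 10 higher, and 4 interstitial macrophage genes were among the lower ones. The 86 genes were chosen for this difference, so any group with a low level of the 76 counts as nearer to CD45.1 monocytes. The count is therefore partly set by the choice of genes. Genes that vary together are not separate readings. Time, age, origin and other cells in the libraries cannot be told apart in this count.

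AΦ had more Marco than monocytes of the same time and origin. The log2 difference was 4.53 (SE 0.36) at 4-weeks, 4.19 (SE 0.36) between TR-AΦ and CD45.2 monocytes, and 1.52 (SE 0.36) between BM-AΦ and CD45.1 monocytes. With 0.1 added in place of 1 these differences were 7.53, 5.02 and 3.97. The lowest AΦ library of each of these comparisons lay above the highest monocyte library. In the same comparisons 48.2%, 47.3% and 50.9% of 13307 genes passed, so most lists held genes that differed between the cell types.

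The order of the 12 groups by mean FPKM ran from TR-AΦ of PM2.5 and of FA exposed mice at 32-weeks, through AΦ of PM2.5 and FA at 4-weeks, to BM-AΦ of PM2.5, CD45.2 monocytes of PM2.5, BM-AΦ of FA and CD45.2 monocytes of FA. The other 4 groups held libraries listed at 0. Each of the first 8 groups overlapped with its neighbours among them. The CD45.2 monocytes of FA (lowest library 0.889 FPKM) did not overlap with the 4 groups below them, whose highest library had 0.117 FPKM. BM-AΦ under FA (0.743 to 2.08 FPKM) and CD45.2 monocytes under FA (0.889 to 1.03 FPKM) overlapped.

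Of the 4 other class A scavenger receptors, Scara3 and Scara5 were too low to be tested, and 0 of the 2 tested passed between BM-AΦ and TR-AΦ, where 0.316% of 12665 genes passed. Msr1, the scavenger receptor A that takes up modified lipoproteins, had a log2 difference of 1.17 (SE 0.46, limma adjusted p = 0.526), opposite in sign to Marco. Its mean was 2.78 and 1.84 FPKM in TR-AΦ at 32-weeks (FA and PM2.5) and 6.00 and 8.42 FPKM in BM-AΦ. Colec12, a scavenger receptor with a collectin domain, had a log2 difference of -1.43 (SE 0.44, limma adjusted p = 0.295), with means of 15.4 and 16.9 FPKM in TR-AΦ and 4.61 and 7.39 FPKM in BM-AΦ.

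Marco made up most of the class A transcripts of TR-AΦ on the FPKM scale. Its share of the summed FPKM of the 5 receptors was 59.6% to 88.5% over the 12 TR-AΦ libraries and 4.09% to 23.9% over the 6 BM-AΦ libraries. In monocytes Msr1 was the main member, at 17.9 to 73.9 FPKM, and the share of Marco was at most 8.58%.

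Against monocytes, Msr1 was lower in AΦ in all 3 comparisons (log2 differences of -3.04, -3.78 and -2.32, limma adjusted p of at most 2.59e-05), and Colec12 was higher (1.48, 1.31 and 2.08, limma adjusted p of at most 0.00416). Between monocytes of the 2 origins Colec12 was lower in CD45.1 cells by a log2 difference of -2.20 (SE 0.25, limma adjusted p = 0.000434), in the direction of Marco, with means of 0.423 and 0.606 FPKM against 6.18 and 6.41 FPKM. It kept this call with any of the 12 libraries left out. Its level in CD45.2 monocytes was a larger part of that in TR-AΦ (15.4 and 16.9 FPKM) than was the case for Marco.

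Genes that work with MARCO did not pass between BM-AΦ and TR-AΦ (0 of 6, median log2 difference 0.24, and 0.02 over all genes tested). With 0.316% of all genes past the threshold, a count of 0 in a list of this size is near the background, here and for the lists that follow. Toll-like receptor 2 (Tlr2), with 347 and 372 FPKM in TR-AΦ and 346 and 384 FPKM in BM-AΦ, had a log2 difference of 0.02 (SE 0.14), and its adaptor Myd88 one of -0.07 (SE 0.07). The co-receptor Cd14 had a log2 difference of 0.44 (SE 0.23), the endotoxin receptor Tlr4 0.09 (SE 0.14) and the peptidoglycan sensor Nod2 0.38 (SE 0.21). The DNA receptor Tlr9 was at 0.472 and 0.43 FPKM in TR-AΦ and 2.68 and 2.48 FPKM in BM-AΦ, with a log2 difference of 1.13 (SE 0.45, limma adjusted p = 0.527). From 4-weeks to 32-weeks under PM2.5, Nod2 was lower (log2 difference -1.42, SE 0.29, limma adjusted p = 0.0333), and it kept this call in 1 of 6 fits with a library left out. The other genes of this list, the class A receptors and the regulators did not pass between the times under either exposure. Against monocytes Tlr4 was higher in AΦ, and Tlr9, Cd14 and Nod2 were lower, in all 3 comparisons.

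Regulators of macrophages and of oxidative stress did not pass between the origins either (0 of 7, where 0.316% of all genes passed, median log2 difference -0.09). Pparg, the nuclear receptor needed for AΦ identity, had 72.7 and 77.2 FPKM in TR-AΦ and 70.0 and 70.1 FPKM in BM-AΦ, a log2 difference of -0.09 (SE 0.13). Spi1, which encodes the myeloid factor PU.1, had a log2 difference of -0.10 (SE 0.09). Nfe2l2, which encodes the oxidative stress factor NRF2, had one of 0.00 (SE 0.17), and its inhibitor Keap1 one of -0.05 (SE 0.15). Bhlhe40 and Bhlhe41, factors of AΦ self-renewal, had differences of -0.08 (SE 0.16) and -0.33 (SE 0.25), and the myeloid factor Cebpb one of -0.20 (SE 0.27). None of the genes of these 3 lists passed in any of the 17 alternative fits of this comparison.

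The 250 bases before the start of the long transcript are shown because the lists above include factors that bind short motifs in promoters. They lie at chr1:120505025-120505274 of GRCm38.p6 on the minus strand, as given by RefSeq, written 5′ to 3′ with the match to GAGGAA in capitals.
Marco: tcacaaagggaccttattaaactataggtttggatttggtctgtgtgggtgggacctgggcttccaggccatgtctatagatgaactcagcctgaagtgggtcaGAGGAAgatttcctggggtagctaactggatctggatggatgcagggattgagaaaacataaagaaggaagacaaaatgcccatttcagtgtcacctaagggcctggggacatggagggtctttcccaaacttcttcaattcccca
Both strands were searched for GAGGAA, a core of sites bound by PU.1, for TGANNNNGC, the core of antioxidant response elements, and for TGANTCA, the AP-1 site. GAGGAA was found 1 time, starting 146 bases before the start, and it occurs in 23.3% of the 32851 promoter windows of this length. The other 2 motifs were found 0 times, and 35.2% and 6.75% of the windows hold them. A match is a description of these letters and not a bound site.

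The defining markers of AΦ were present in both origins. None of the 13 markers passed between BM-AΦ and TR-AΦ (0 higher and 0 lower, median log2 difference -0.09), with all libraries or in any of the 17 alternative fits, where 0.316% of all genes passed. Their summed level was 4695 to 6580 FPKM in TR-AΦ at 32-weeks, 4229 to 5797 FPKM in BM-AΦ and 81.4 to 696.9 FPKM in monocytes. Siglecf had the largest difference in size (-0.51, SE 0.15, limma adjusted p = 0.283). In all 3 comparisons of AΦ with monocytes the 13 markers were higher in AΦ (13 of 13), where 48.2%, 47.3% and 50.9% of all genes passed in either direction.

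Genes of other cells were not equal in the 2 kinds of AΦ. The monocyte markers summed to 227.1 to 465.6 FPKM in BM-AΦ and 164.5 to 241.9 FPKM in TR-AΦ at 32-weeks, against 1415 to 4224 FPKM in monocytes. The 7 interstitial macrophage genes summed to 49.7 to 328.9 FPKM in BM-AΦ and 21.8 to 87.4 FPKM in TR-AΦ, with 0 of 7 past the threshold (median log2 difference 1.67). Up to 4 of them passed in an alternative fit, all higher in BM-AΦ. Dendritic cell genes, which include those of MHC II, summed to 4329 to 7073 FPKM in BM-AΦ (median 5420) and 3293 to 4767 FPKM in TR-AΦ (median 3784). In monocytes they summed to 653.5 to 9617 FPKM, although MHC II negative cells had been sorted. The part of other cells in the difference of Marco was not tested.

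**Figure D3:**
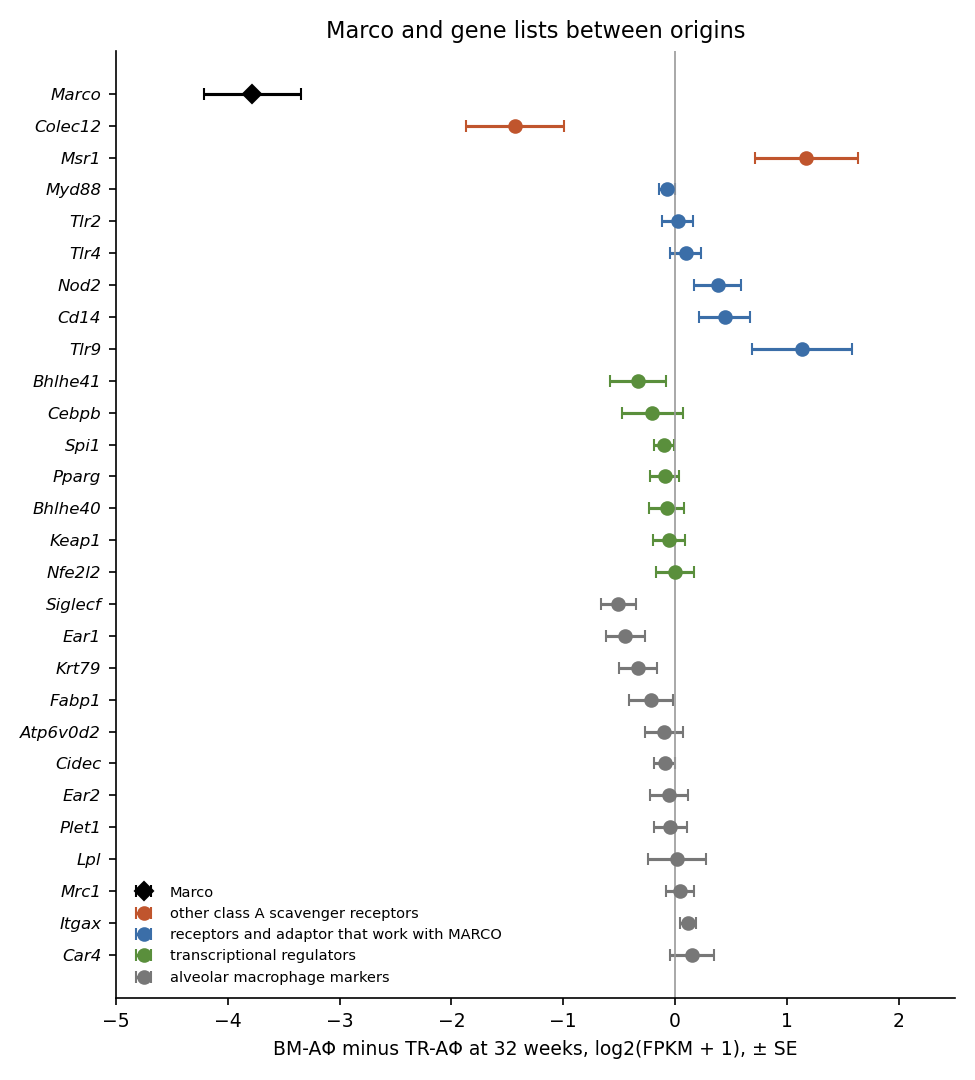
Log2 differences (± SE) between BM-AΦ and TR-AΦ at 32-weeks for Marco, shown without a test, and for the tested genes of 4 lists, on the scale of log2(FPKM + 1). Marco lies at -3.78, Colec12 and Msr1 lie on opposite sides of 0, and the alveolar macrophage markers lie between -0.51 and 0.15.

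The neighbours of Marco on chromosome 1 were read because Ptprc, whose alleles CD45.1 and CD45.2 define the origins, lies 17.6 Mb from Marco on the same chromosome. The nearest tested gene on the side of lower coordinates was Steap3, a metalloreductase of iron uptake, from 120190757 to 120272705 on the minus strand and 202.0 kb from Marco. Steap3 went the other way from Marco. It had 1.07, 1.86 and 1.28 FPKM in TR-AΦ of FA exposed mice and 2.57, 1.18 and 1.78 FPKM under PM2.5, and 8.78, 8.43 and 12.6 FPKM in BM-AΦ of FA exposed mice and 6.85, 8.84 and 17.0 FPKM under PM2.5. All BM-AΦ libraries lay above all TR-AΦ libraries. The log2 difference was 2.09 (SE 0.22, limma adjusted p = 0.000384), and the call was kept with any of the 12 libraries left out.

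Beyond it, Tmem37, which encodes a membrane protein, was also higher in BM-AΦ (log2 difference 1.85, SE 0.30, limma adjusted p = 0.018). It had means of 3.53 and 3.82 FPKM in BM-AΦ under FA and PM2.5. TR-AΦ were listed at 0.274, 0 and 0.307 FPKM under FA and at 0, 0.349 and 0.247 FPKM under PM2.5. The adjusted p from limma was 0.0625 without BM-AΦ FA replicate 0, 0.0506 without BM-AΦ PM2.5 replicate 0 and 0.0639 without TR-AΦ FA replicate 1. In monocytes the sign of its log2 difference was the opposite (-1.93, SE 0.44, limma adjusted p = 0.071). Between these genes, Dbi, the acyl-CoA binding protein, had 217 and 209 FPKM in BM-AΦ and 132 and 121 FPKM in TR-AΦ, with a log2 difference of 0.75 (SE 0.15, limma adjusted p = 0.0572). It passed in 2 of the 5 alternative fits with all libraries.

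The other neighbours did not pass. On the side of lower coordinates these were the phosphatase gene Ptpn4 (log2 difference 0.37, SE 0.19) and the small RNA gene Gm25322. On the other side they were Insig2 (-0.05, SE 0.20), Ccdc93 (0.16, SE 0.13) and Ddx18 (0.06, SE 0.15), at 799.0 to 1050 kb from Marco, and the small RNA genes Gm24547 and Gm25578. Within 1 Mb of Marco 2 of 9 other genes tested passed, and within 5 Mb the count was 2 of 19, both times Steap3 and Tmem37. Within 20 Mb it was 5 of 128, where 0.316% of all genes tested passed. The other 3 were Ctse, Ppp1r12b and Gm38399, named after their values were seen.

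Ctse, which encodes the protease cathepsin E, had a log2 difference of 2.11 (SE 0.34, limma adjusted p = 0.0157), which became 0.0545 without BM-AΦ FA replicate 0 and 0.0586 without TR-AΦ FA replicate 1. Ppp1r12b and Gm38399 kept their calls in 3 and 4 of the 12 fits with a library left out. The medians of the log2 differences over the other genes within 1, 5 and 20 Mb were 0.16, 0.11 and 0.06.

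**Figure D4:**
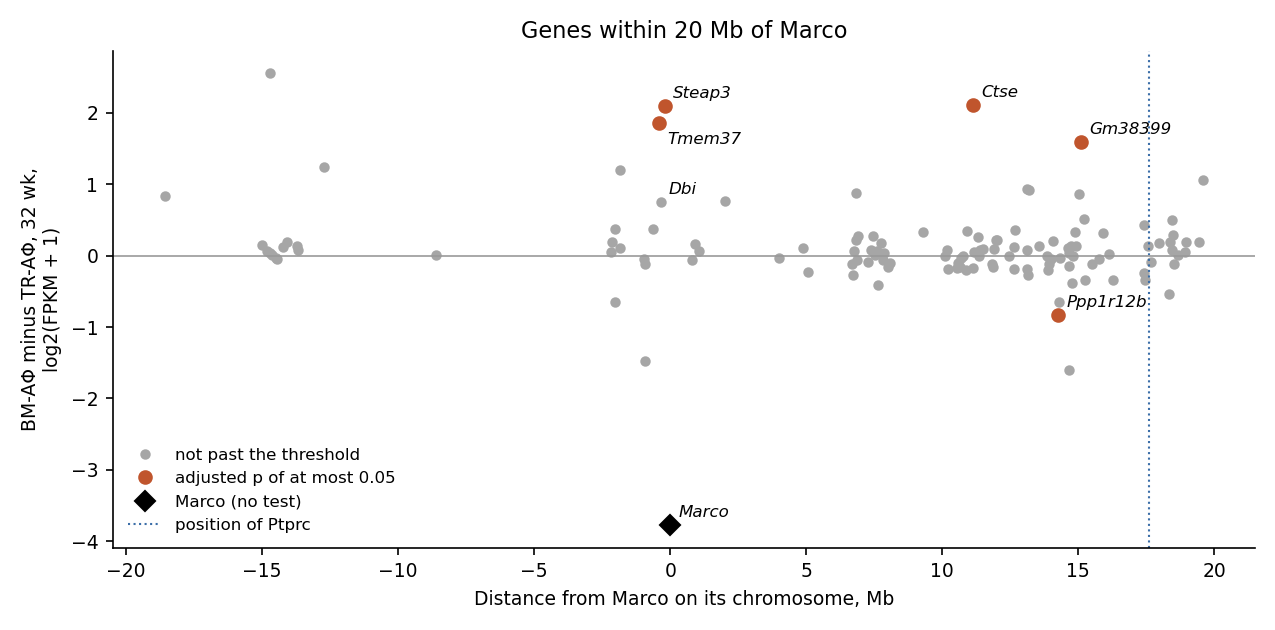
Log2 differences between BM-AΦ and TR-AΦ at 32-weeks of the genes tested within 20 Mb of Marco, against the distance from Marco on its chromosome. Marco (black, no test) lies at -3.78, and 4 of the 5 genes that passed (orange) lie above 0, among them Steap3 and Tmem37 next to Marco. The dotted line marks Ptprc.

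Genes with a pattern like that of Marco were sought over the 18 AΦ libraries, by Pearson's r of log2(FPKM + 1) with each of 12664 other genes. These libraries share the division by origin, which r follows, and r is given as a description. The 8 highest were Apoc1 (r = 0.915), Adgrl3 (0.914), Bmpr1a (0.913), Mum1l1 (0.904), Wwtr1 (0.895), Tcaf1 (0.889), Meis1 (0.866) and Rps4l (0.856), and the ninth was 0.853. Apoc1 was listed at 0 in the 3 BM-AΦ libraries of FA exposed mice and had a mean of 34.7 FPKM in TR-AΦ of FA exposed mice. Bmpr1a, a receptor of bone morphogenetic proteins, had means of 3.66 and 3.69 FPKM in TR-AΦ at 32-weeks and 0.451 and 0.427 FPKM in BM-AΦ. Wwtr1, which encodes the transcriptional co-activator TAZ, had 32.1 and 31.0 FPKM against 10.4 and 11.1 FPKM. Tcaf1, which encodes a partner of a cold-sensing channel, had 13.8 and 16.1 FPKM against 3.87 and 4.71 FPKM, and the homeobox gene Meis1 2.48 and 2.92 FPKM against 0.557 and 0.425 FPKM.

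Apoc1 did not follow Marco in monocytes, where its group means were 6.67 to 24.3 FPKM, in contrast with Bmpr1a, which was at 2.92 and 2.46 FPKM in CD45.2 monocytes and at most 0.324 FPKM in the other monocyte groups. The 3 lowest r were those of Sod3 (-0.877), the extracellular superoxide dismutase, Gprin3 (-0.870) and Esr1 (-0.837), the oestrogen receptor. Sod3 had means of 10.5 and 12.8 FPKM in BM-AΦ and 1.17 and 0.793 FPKM in TR-AΦ at 32-weeks.

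Within groups the likeness was another one. When each library was set against the mean of its own group, the 5 highest r were those of Rpl12 (0.847), Sass6 (0.838), Rufy1 (0.837), Cd200r1 (0.826) and Nudcd1 (0.818), none of them among the 8 above. Among the 8 above, the r of these deviations was 0.440 to 0.754. In the heat map the AΦ of FA exposed mice at 4-weeks divide as Marco does, with replicates 0 and 1 below replicate 2 in the genes most like it. These genes were chosen by r over the same libraries, so the choice itself favours this division.

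**Figure D5:**
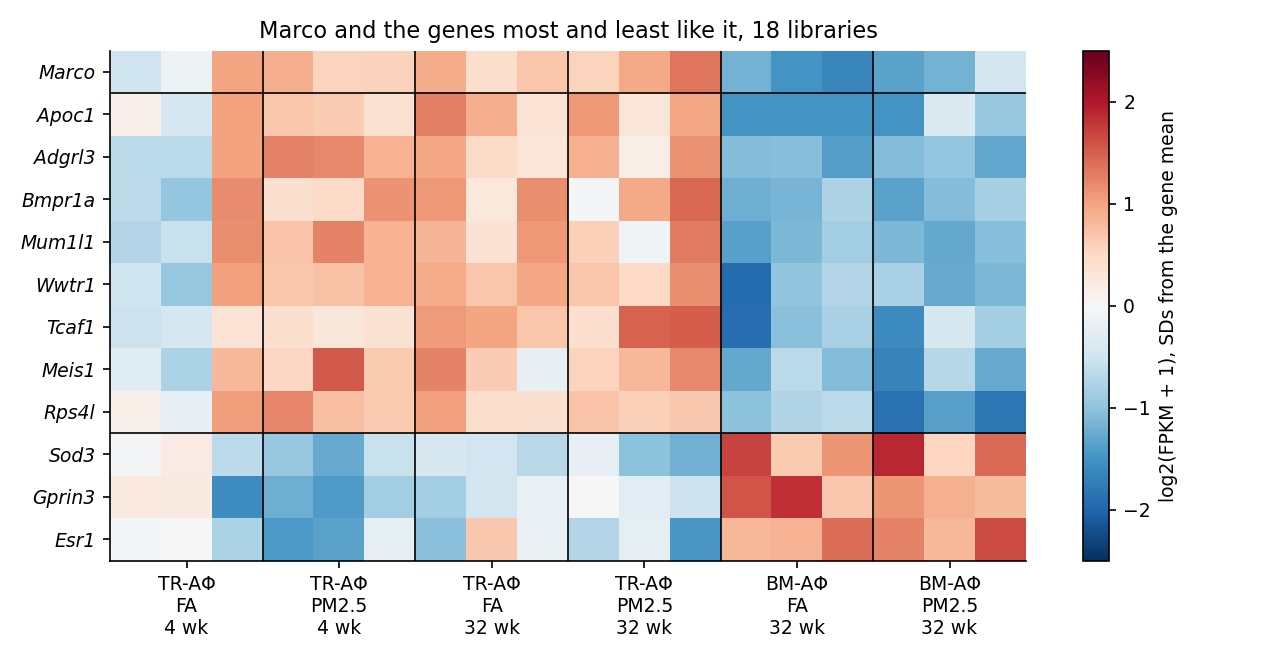
Heat map of log2(FPKM + 1), in SDs from the mean of each gene over the 18 AΦ libraries, for Marco, the 8 genes with the highest r with Marco and the 3 with the lowest, with replicates 0, 1 and 2 from left to right in each group. The 8 genes were chosen by their likeness to Marco, and they are low in the 6 BM-AΦ libraries on the right.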

How the data were processed

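RNA of sorted lung AΦ and monocytes was sequenced by the authors in paired ends from a stranded kit, aligned with STAR to mm10 with GENCODE genes, and deposited as FPKM from Cufflinks, a unit scaled for depth and transcript length. The study states a nominal number of reads, and the depth of each library is unknown, since no read counts were used. Sums over all genes were 1839577 to 3339020 FPKM per library. The columns carry the names of the 36 libraries, and 0 columns were left unmapped. The labels do not name the animals, and the study describes 3 mice from each group as biological replicates. The p-values measure the spread between these libraries.

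Group means of log2(FPKM + 1) were fitted with limma 3.58.1 in R 4.3.3, with a trend in the moderated variance, in 3 models of 18 AΦ, 18 monocyte and 36 libraries. Tests were run for genes whose FPKM averaged 1 or more in a model, with Benjamini-Hochberg adjustment over all of them and a threshold of 0.05. Marco was fitted with them and not tested. The procedure was tested on simulated data. Figures were drawn with matplotlib 3.10.9.

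Marco, its lists and the tests were chosen with earlier results of these data known. Genes named were Marco, 3 lists (class A scavenger receptors, partners of MARCO, regulators), the 8 highest and 3 lowest r with Marco, the 5 highest r of deviations, the 5 nearest tested genes on each side and the 5 largest falls beyond that of Marco. Markers of 11 cell types were summed by library. 1 gene was left out of these lists and is not reported here. Alternatives were a pseudocount of 0.1, no filter, quantile normalization, only the groups compared, a replicate block and each library left out. Promoter sequences came from RefSeq for GRCm38.p6.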

Additional observations from a re-analysis of the deposited data

How the results depend on the processing

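No FPKM behind Marco can be given a counting error, and values under about 0.197 FPKM in monocytes are near the lowest the table holds. Of 160 alternative values of the 13 differences of Marco, 153 stayed within the SD between replicates of the value reported. Fits with only the groups compared or with a replicate block could not change these values. The model has 1 mean per group, and each group holds replicates 0, 1 and 2 once. The SD itself was up to 1.07 on the log2 scale (32-weeks minus 4-weeks under FA), so shifts of that size count as kept. Of the 713 alternative values of all results 571 kept their direction, call or range and 46 moved. A call was lost in 94, gained in 2 and turned to the other sign in 0. Without 1 library the differences by exposure in monocytes, which overlapped, were -0.05 to 0.03 at 4-weeks and -0.23 to 0.76 in CD45.2 monocytes. With a pseudocount of 0.1 the log2 difference of Marco became -0.17 (PM2.5 minus FA, monocytes of 4-weeks), 0.59 (the same in CD45.1 monocytes), -3.32 (CD45.1 minus CD45.2 monocytes), 7.53 (AΦ minus monocytes, 4-weeks), 5.02 (TR-AΦ minus CD45.2 monocytes) and 3.97 (BM-AΦ minus CD45.1 monocytes). Quantile normalization gave -0.13 for the first of these, and a group mean of 0.812 FPKM in CD45.2 monocytes under FA. In CD45.1 monocytes under FA, with all 3 libraries listed at 0, it set the ties at 0 to 0.00487 FPKM. Of the 8 genes most like Marco, 5 were among the top 8 by Spearman's rho and 4 with a mean of at least 5 FPKM, a limit that removes genes of low level.

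Counts of genes that passed moved more. Without a filter they were 62 (BM-AΦ minus TR-AΦ) and 149 (CD45.1 minus CD45.2 monocytes). With only the groups compared they were 69 and 52, and 14 and 18 for 32-weeks minus 4-weeks under FA and PM2.5. With each library left out they were 15 to 56 (40 with all), 49 to 148 (86), 50 to 143 (99) and 54 to 259 (133) in this order of comparisons. The cause was not tested.

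The replicate numbers were not treated as pairs, although replicate 2 shared a high red cell sum in the groups of 32-weeks and a low one in those of 4-weeks. Same-numbered libraries had correlations of deviations of -0.0868 to 0.209, and in no comparison (0 of 13) were all over 0.1. Of 108 comparisons of a library with the 3 of another group, its own number had the highest correlation in 69. The study sorted AΦ and monocytes of both origins from the lungs of exposed mice. It selected 3 mice for each exposure and time, so libraries of the same exposure and time can share animals. The labels do not say whether a number stands for the same mouse, and the main fits treated all libraries as independent. A replicate block cannot change the differences of Marco, since each group holds replicates 0, 1 and 2 once. The SE of the difference between BM-AΦ and TR-AΦ (-3.78) was 0.41 with the block and 0.43 without it. With the block the counts were 85, 144, 197 and 381 in the order above, and 6977, 6891 and 7311 for AΦ against monocytes.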
